A study of Mus musculus with 3 samples.

Results

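The TOX family comprises *Tox*, *Tox2*, *Tox3* and *Tox4*, and its 4 rows were taken by symbol from a deposited table of 24958 genes. *Tox2* had been picked as the candidate factor most restricted to granulosa cells (GCs) in these same cells, so its difference between GCs and other cells is a description of the values that chose it. The cells came from mouse ovaries collected 0, 1 and 6 h after injection of human chorionic gonadotropin (hCG), an analogue of luteinizing hormone (LH) that triggers ovulation, with 1 10x Genomics library per time point. The labels give neither strain nor age, nor whether the mice were primed with another gonadotropin. For the sequenced ovaries the study's methods describe PMSG-primed immature Kunming mice and no hCG, which could match only the library at 0 h. RefSeq lists Tox as an older name of *Rhox8*, but *Rhox8* has a row of its own, and its level in theca-like cells (7.20 UMIs per 10000) set beside that of the *Tox* row (0.0204) shows that these rows hold different genes.

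The table held 31776 cells with 240030587 unique molecular identifiers (UMIs) and a median of 6347.5 UMIs per cell. Barcodes ended in 1, 2 or 3, and the labels do not tie an ending to a library. These endings were therefore called barcode sets 1, 2 and 3 (10384, 9917 and 11475 cells, median depths of 6093, 6352 and 6524 UMIs), no set was given a time point, and there was no replicate and no test. Of the barcodes, 112 occurred in 2 sets. A level below is the mean over cells of a gene's UMIs per 10000 UMIs, and every interval in brackets is a 95% interval for counting error only. Cells were grouped by clustering each set without the 4 members and naming its clusters from marker genes, which gave 14441 granulosa-like cells in 23 of 64 clusters. The granulosa-like clusters included antral mural-like, preantral-like, expanding cumulus-like (set 3) and atretic-like subtypes and clusters without a subtype, and set 3 had no antral mural-like cluster. In set 2, an antral mural-like cluster of 1032 cells led by *Comp*, *Tnfsf11* and *Flrt3* had a luteal marker and no GC marker among its leading genes, so levels of granulosa-like cells are not compared between sets, and a value given over the table pools the sets. The same holds for endothelial-like cells, since 1 small cluster of them in set 1 was led in part by the cumulus gene *Ptx3*.

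TOX proteins are nuclear factors that share a single kind of HMG-box domain, a DNA-bending fold that recognises DNA structure more than a strict sequence. TOX is best known for thymocyte development and T cell exhaustion. TOX2 was described in the rat ovary as granulosa cell HMG-box protein 1, a gene of the hypothalamo-pituitary-gonadal axis, and RefSeq keeps *Gcx1* as a synonym. TOX3 has been reported to bind CREB and CITED1 and to act in calcium-dependent transcription in neurons, and TOX4 is the DNA-binding subunit of the PTW/PP1 phosphatase complex with PNUTS (*Ppp1r10*) and WDR82.

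In the GENCODE annotation of GRCm38 (mm10), *Tox2* (ENSMUSG00000074607) lies on the plus strand at chr2:163203125-163324170, *Tox* (ENSMUSG00000041272) on the minus strand at chr4:6686353-6991557, *Tox3* (ENSMUSG00000043668) on the minus strand at chr8:90247040-90348343 and *Tox4* (ENSMUSG00000016831) on the plus strand at chr14:52279146-52296401. *Tox2* and *Tox3* overlap no other gene. *Tox* overlaps the antisense gene *Gm11802*, and *Tox4* overlaps *Rab2b* and *Mettl3* on the other strand. The RefSeq promoter windows (250 bases before to 50 after a start, GRCm38.p6) are shown because the members differ so much in where they were detected. The table has 5 windows for *Tox2*, 1 each for *Tox3* and *Tox4* and none for *Tox*. Below are the outermost *Tox2* window (chr2:163202877-163203176), an inner *Tox2* window (chr2:163225203-163225502) inside the gene body, the *Tox3* window (chr8:90348203-90348502, minus strand) and the *Tox4* window (chr14:52278896-52279195), with matches to the searched motifs on either strand in capitals.
Tox2, outermost start: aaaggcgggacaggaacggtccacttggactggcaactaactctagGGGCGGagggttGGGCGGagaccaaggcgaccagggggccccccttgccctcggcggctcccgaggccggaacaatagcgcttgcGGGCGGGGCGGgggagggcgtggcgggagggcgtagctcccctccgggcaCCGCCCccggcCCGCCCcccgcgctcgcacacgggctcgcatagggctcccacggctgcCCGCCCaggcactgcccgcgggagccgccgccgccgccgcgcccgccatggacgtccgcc
Tox2, inner start: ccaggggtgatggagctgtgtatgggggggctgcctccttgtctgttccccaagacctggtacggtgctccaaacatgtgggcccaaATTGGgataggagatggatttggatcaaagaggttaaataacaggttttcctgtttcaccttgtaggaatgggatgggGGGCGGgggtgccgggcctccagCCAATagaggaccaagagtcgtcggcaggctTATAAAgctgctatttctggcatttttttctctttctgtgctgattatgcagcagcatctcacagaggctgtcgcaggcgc
Tox3: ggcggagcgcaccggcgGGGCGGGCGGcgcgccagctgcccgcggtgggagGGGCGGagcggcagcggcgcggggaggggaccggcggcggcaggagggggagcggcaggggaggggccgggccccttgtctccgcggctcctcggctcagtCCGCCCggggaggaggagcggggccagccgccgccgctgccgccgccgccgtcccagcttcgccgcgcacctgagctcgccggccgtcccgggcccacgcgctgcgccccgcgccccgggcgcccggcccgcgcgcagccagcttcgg
Tox4: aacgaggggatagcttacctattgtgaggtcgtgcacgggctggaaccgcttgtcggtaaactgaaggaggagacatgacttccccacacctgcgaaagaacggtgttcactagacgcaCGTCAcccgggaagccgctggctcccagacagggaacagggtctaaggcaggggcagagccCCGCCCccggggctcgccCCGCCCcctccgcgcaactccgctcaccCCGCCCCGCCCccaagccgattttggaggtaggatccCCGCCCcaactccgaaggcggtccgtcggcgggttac

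Both strands were searched for the binding letters of the NR5A receptors, which are AAGGTCA, and for the cyclic AMP response element (CRE), which is TGACGTCA. The search also took the shortened CRE, written TGACG and contained in the full one, the AP-1 site with the letters TGACTCA, and the E-box with the letters CACGTG. Core promoter elements were the GC box with the letters GGGCGG, the TATA box with the letters TATAAA, and the CCAAT box. The outermost *Tox2* window held 7 GC boxes and none of the other motifs, at 77% G+C. Another *Tox2* window (chr2:163203936-163204235), not printed, held 1 shortened CRE and 4 CCAAT boxes. The inner *Tox2* window, at 53.3% G+C, held 1 GC box 85 bases before the start, 1 TATA box 31 bases before it and 2 CCAAT boxes. *Tox3* had 4 GC boxes at 85.3% G+C, and *Tox4* had 5 GC boxes and 1 shortened CRE at 65.7% G+C. Over 32851 promoters the median was 52.7% G+C, and a GC box occurred in 35.7%, a TATA box in 13.6%, a CCAAT box in 37.4%, a shortened CRE in 20.8%, an E-box in 7.15%, AP-1 in 5.20%, the NR5A letters in 4.72% and a full CRE in 1.79%. None of the printed windows held the NR5A, full CRE, AP-1 or E-box letters. The table counts UMIs per gene, so it does not show which *Tox2* start was used.

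*Tox2* was detected mainly in GCs. Granulosa-like cells had a level of 2.14 (2.11 to 2.18) and the remaining cells one of 0.168 (0.156 to 0.181), so that the ratio was 12.8 (11.9 to 13.7). In set 1 the levels were 2.64 and 0.108 (ratio 24.5, 22.0 to 27.4), in set 2 they were 2.78 and 0.261 (10.7, 9.49 to 12.1), and in set 3 they were 1.10 and 0.144 (7.66, 6.83 to 8.61). GCs were higher in each set, with intervals of the ratio that did not reach 1. As *Tox2* had been picked for this difference, the intervals and the rank given next describe it and do not test it. Of 15171 genes with at least 100 UMIs, 10.6% were at least 2-fold higher in granulosa-like than in other cells over the table (10.6%, 10% and 13.7% in sets 1, 2 and 3), and 90 had a larger ratio than *Tox2*. Granulosa-like cells held 92.3% (91.9 to 92.6) of the 25576 *Tox2* UMIs, beside 45.8% of all UMIs. The ratio fell to 7.95 when all sets were clustered together and to 5.48 with a stricter marker level, which left 6979 cells unnamed in place of 1684 and the share of UMIs at 68.2%.

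**Figure D1:**
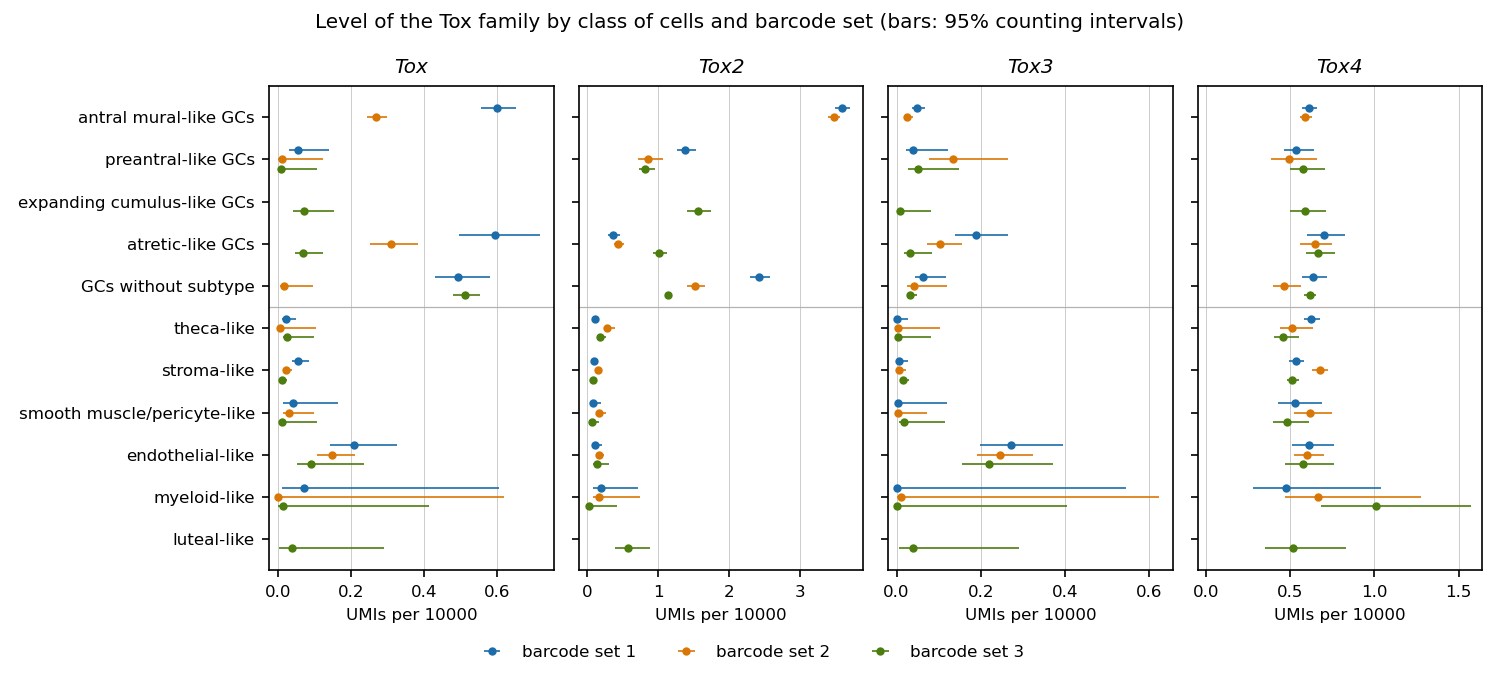
Levels of *Tox*, *Tox2*, *Tox3* and *Tox4* (UMIs per 10000, x axis, a separate scale for each gene) in each class of cells (y axis), with GC subtypes above the line; points are barcode sets 1, 2 and 3 and bars are 95% counting intervals. *Tox2* was highest in antral mural-like GCs (3.59 in set 1 and 3.48 in set 2), *Tox* was near 0 in preantral-like GCs, *Tox3* was highest in endothelial-like cells (0.218 to 0.271) and *Tox4* was found in every class.

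Among GCs, the *Tox2* level was highest in antral mural-like clusters, at 3.59 (3.49 to 3.70) in set 1 and 3.48 (3.4 to 3.56) in set 2. Their name rests on markers and does not show where in a follicle the cells lay. Preantral-like GCs, marked by *Amh*, *Kctd14* and *Gatm*, had 1.38, 0.860 and 0.821 in sets 1, 2 and 3. The level of antral mural-like over preantral-like GCs was 2.60 (2.38 to 2.84) in set 1 and 4.04 (3.37 to 4.89) in set 2, in which 16.9% and 19.5% of all genes were at least 2-fold higher. The expanding cumulus-like cluster of set 3, led by *Ptx3* and *Inhba*, had 1.55 (1.40 to 1.74), which was 1.89-fold (1.62 to 2.212) the preantral-like level of the same set. Atretic-like GCs had 0.366, 0.440 and 1.01. Against the preantral-like cells of their set they stood at 0.264 (0.207 to 0.334) and 0.511 (0.398 to 0.658) in sets 1 and 2, and at 1.23 (1.06 to 1.43) in set 3, so the order of these subtypes was not the same in every set. The atretic-like clusters of sets 1 and 2 had 2 and 3 of the 10 GC markers detected and were called granulosa-like from the atretic markers alone.

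Over the 23 granulosa-like clusters the *Tox2* level ranged from 0.366 to 4.88 with a median of 1.55. The highest value, 4.88 (4.64 to 5.14), was in a set 1 antral mural-like cluster of 465 cells led by *Inhbb*, *Nap1l5* and *Rab33a*. The cumulus marker *Grem1* was also among its 10 leading genes. With the expanding cumulus-like cluster of set 3 it shared *Inhbb*, *Nap1l5*, *Crabp2* and *Grem1* among the leading genes. Whether it held cumulus cells was not tested. Of the 23 clusters, 21 lay above each of the 35 clusters of other named classes, and the exceptions were the atretic-like clusters of sets 1 and 2. The highest cluster of another named class was the luteal-like cluster of set 3 (65 cells, 0.571, 0.398 to 0.891). Its interval overlapped that of the preantral-like cells of its set (0.731 to 0.959). Unnamed clusters of set 1 (396 cells) and set 2 (165 cells) also had the luteal marker *Sfrp4* among their leading genes. Their *Tox2* levels were lower, at 0.148 (0.117 to 0.306) and 0.408 (0.327 to 0.552). In set 1 the order of the *Tox2* level was antral mural-like, GCs without a subtype (2.42, 2.29 to 2.57), preantral-like and atretic-like, and in set 2 it was the same, with 1.52 (1.40 to 1.67) in GCs without a subtype. In set 3 it was expanding cumulus-like, GCs without a subtype (1.14, 1.09 to 1.18), atretic-like, preantral-like and luteal-like. The intervals of neighbours overlapped from GCs without a subtype to luteal-like cells, and those of expanding cumulus-like and luteal-like cells lay above the next in the order. From atretic-like cells downward in sets 1 and 2, and from theca-like cells downward in set 3, the intervals of all neighbours overlapped.

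Outside GCs and the luteal-like cluster, *Tox2* was low but present in every class. Over the table the level was 0.157 (0.141 to 0.184) in theca-like, 0.147 (0.117 to 0.1997) in endothelial-like, 0.113 (0.0720 to 0.287) in myeloid-like, 0.110 (0.0863 to 0.154) in smooth muscle and pericyte-like and 0.107 (0.0985 to 0.119) in stroma-like cells. Stroma-like cells, which should lack GC transcripts, had 5.01% (4.59 to 5.46) of the granulosa-like *Tox2* level. For the 10 GC markers the same percentage ran from 2.70% for *Fst* to 27.6% for *Gatm*, with *Inha* at 3.51% and *Serpine2* at 6.75%. *Tox2* lay within that range. The top of the range is *Gatm*, which was not restricted to GCs, at 0.542 in endothelial-like and 0.274 in granulosa-like cells. By set, the *Tox2* percentage was 3.86% and 5.53% in sets 1 and 2, below *Serpine2* (6.05% and 7.69%). In set 3 it was 7.07% (6.02 to 8.24), above each marker but *Gatm* (12.4%). The interval of *Inhbb*, the next lower at 7.01% (5.46 to 8.87), overlapped that of *Tox2*. The part of free RNA in the low *Tox2* levels outside GCs was not tested. After each cell was thinned to 3000 UMIs, 41.2% (40.3 to 42.0) of granulosa-like and 61.3% (60.0 to 62.6) of antral mural-like cells had a *Tox2* UMI, against 2.99% (2.64 to 3.37) of stroma-like and 4.46% (3.66 to 5.38) of theca-like cells. Before thinning these shares were 61.7%, 82.1%, 6.34% and 14.8%, at median depths of 6424, 6375, 6030 and 10732 UMIs, and thinning left out 661 granulosa-like and 922 stroma-like cells.

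**Figure D2:**
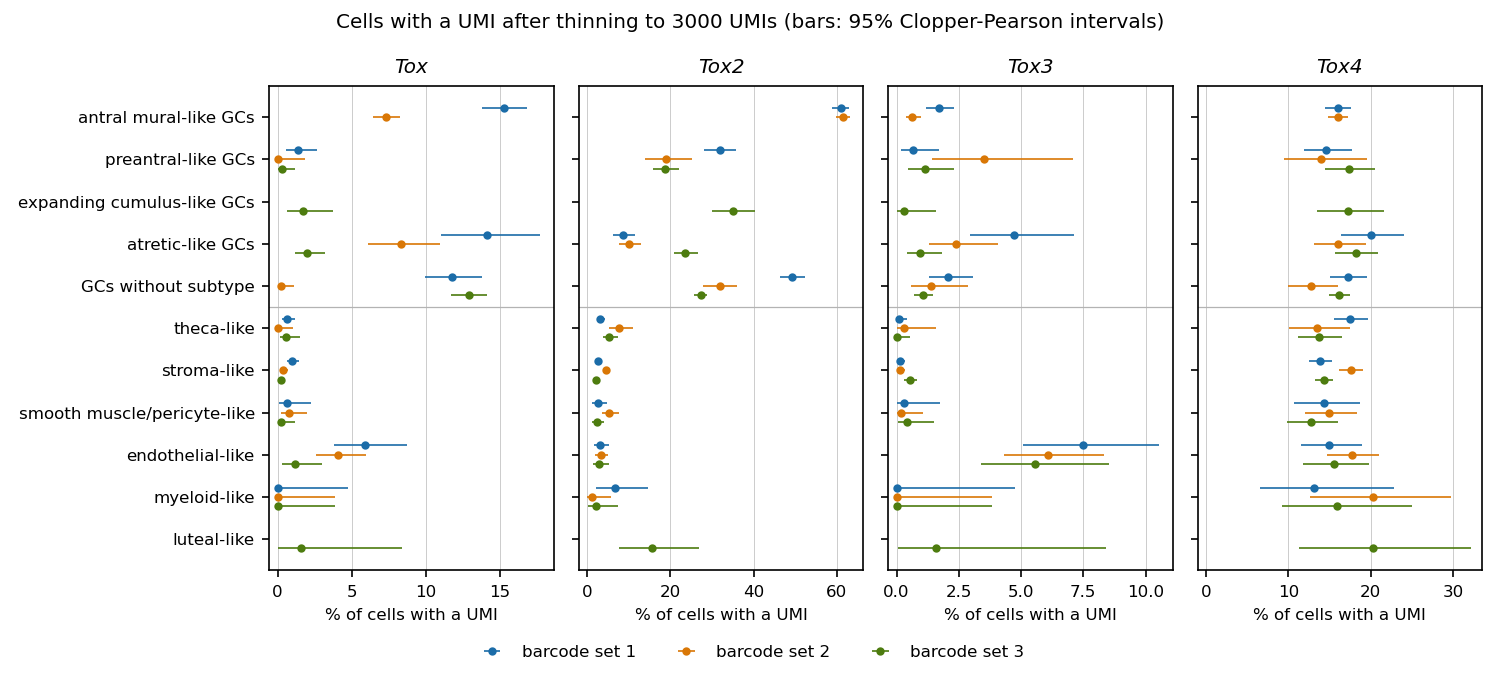
Percentage of cells with at least 1 UMI of each gene after thinning each cell to 3000 UMIs (x axis) by class of cells (y axis); points are barcode sets and bars are 95% Clopper-Pearson intervals. For *Tox2*, 61.3% of antral mural-like cells and 2.99% of stroma-like cells over the table had a UMI, while for *Tox4* the shares of granulosa-like (16.3%) and other cells (15.2%) lay close together.

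Over all cells of a set, *Tox2* levels of 1.26, 1.44 and 0.568 were found for sets 1, 2 and 3. The level of set 3 was 0.394-fold (0.379 to 0.41) that of set 2 and 0.451-fold (0.433 to 0.469) that of set 1, and in these comparisons 10.6% and 14.1% of all genes were at least 2-fold lower. The level of set 2 was 1.14-fold (1.11 to 1.18) that of set 1, where 5.52% of all genes were at least 2-fold higher. Set 3 had no antral mural-like cluster, whereas 21.9% of the cells of set 1 and 34.0% of those of set 2 were antral mural-like, and in a mean over all cells, fewer cells of a type and less RNA per cell cannot be told apart. Granulosa-like cells as a whole were 45.5%, 46.8% and 44.3% of the cells of sets 1, 2 and 3. In stroma-like cells, *Tox2* was 0.102, 0.154 and 0.0778 in sets 1, 2 and 3, and *Inha*, the inhibin subunit made by GCs, was 2.01, 2.49 and 0.962 in the same cells. In theca-like cells *Tox2* was 0.109 (0.0910 to 0.141), 0.285 (0.234 to 0.393) and 0.184 (0.153 to 0.261), and theca-like over stroma-like cells was 1.07 (0.839 to 1.37), 1.86 (1.46 to 2.35) and 2.36 (1.86 to 2.99). The low *Tox2* level outside GCs was therefore highest in set 2 in both classes, as that of *Inha* was in stroma-like cells, and the part of free RNA was not tested.

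*Tox* was also higher in GCs, at 0.356 (0.342 to 0.372) against 0.0414 in other cells, a ratio of 8.61 (7.43 to 10.0). The granulosa-like and other levels were 0.498 and 0.0581 in set 1 (ratio 8.56, 6.92 to 10.7), 0.234 and 0.0370 in set 2 (6.32, 4.99 to 8.10) and 0.336 and 0.0301 in set 3 (11.2, 8.0 to 16.1). *Tox* and *Tox2* were both at least 2-fold higher in granulosa-like cells in each set, a pattern held by 5.46% of all genes, and *Tox3* and *Tox4* were not. For *Tox2* this is again a description, since it had been picked for its restriction to GCs. Granulosa-like cells held 89.1% of the 3791 *Tox* UMIs. The ratio depended on how the clusters were drawn and named, with 4.89 at a Louvain resolution of 2, 3.54 with each cell classed by its own marker score, 2.47 with the sets clustered together and 2.36 with a stricter marker level.

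Within GCs, *Tox* did not follow the order of *Tox2*. Antral mural-like GCs had 0.601 (0.557 to 0.651) in set 1 and 0.268 (0.245 to 0.298) in set 2. Preantral-like GCs had 0.0547, 0.0107 and 0.00848 in sets 1, 2 and 3, from 22, 2 and 4 UMIs. Their intervals overlapped those of stroma-like cells in each set (0.0554, 0.0224 and 0.0119). In set 1, a stroma-like cluster led by *Mfap5* and *Nrg1* held 35 of the 75 stroma-like *Tox* UMIs, at 0.131 (0.0796 to 0.233). The remaining stroma-like clusters of that set ran from 0.0171 to 0.0605. Antral mural-like over preantral-like GCs was 11 (6.84 to 18.8) in set 1 and 25.1 (6.57 to 240) in set 2, and 14.3 (9.42 to 22.8) over the table, where 14.2% of all genes were at least 2-fold higher. That last ratio was 29.8 without set 1, 19.4 without set 2 and 9.16 without set 3, and under the other groupings of cells it was 10.6 at a Louvain resolution of 0.5 and between 27.0 and 44.3 in the remaining 4. Atretic-like GCs had 0.595 (0.495 to 0.719), 0.310 (0.253 to 0.385) and 0.0700 (0.0468 to 0.125) in sets 1, 2 and 3. They exceeded the preantral-like cells of the same set by 10.9-fold (6.55 to 19.1), 29.0-fold (7.46 to 281) and 8.25-fold (2.71 to 37.0), where *Tox2* was lower in atretic-like cells in sets 1 and 2. In sets 1 and 2 the atretic-like level of *Tox* stood at 0.989 (0.812 to 1.20) and 1.16 (0.927 to 1.44) of the antral mural-like level, and that of *Tox2* at 0.102 (0.0807 to 0.127) and 0.126 (0.107 to 0.149).

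The shares of cells with a *Tox* UMI after thinning also set preantral-like GCs apart. In set 1 a UMI was seen in 15.3% (13.8 to 16.9) of antral mural-like, 14.2% (11.1 to 17.7) of atretic-like and 1.34% (0.580 to 2.62) of preantral-like cells, and in set 2 in 7.30% (6.44 to 8.24), 8.32% (6.13 to 10.97) and 0 of 200 thinned cells, which allows a share of up to 1.5% by a limit of 3 cells. Before thinning, these preantral-like cells of set 2 held 2 *Tox* UMIs. In set 3 the shares were 1.99% (1.17 to 3.17) of atretic-like and 0.321% (0.0389 to 1.15) of preantral-like cells. Stroma-like cells had 0.998% (0.647 to 1.47), 0.351% (0.161 to 0.666) and 0.218% (0.0942 to 0.429) in sets 1, 2 and 3. The unthinned shares over the table were 20.3% of antral mural-like, 12.1% of atretic-like, 1.56% of preantral-like and 1.42% of stroma-like cells. In set 1 the share of preantral-like GCs was thus not distinguishable from that of the pooled stroma-like cells at this depth, and sets 2 and 3 have too few UMIs to tell. The expanding cumulus-like cluster of set 3 had a *Tox* level of 0.0728 (0.0420 to 0.153), and GCs without a subtype had 0.492, 0.0171 and 0.513 in sets 1, 2 and 3.

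The granulosa-like clusters fell into 8 with a *Tox* level under 0.1 (0.00848 to 0.0728, 3757 cells) and 15 with 0.134 to 1.09 (10684 cells). *Amh*, which encodes anti-Müllerian hormone and is expressed in small growing follicles, was set beside them after these values were seen. The 6 clusters with an *Amh* level of 0.5 or more (0.963 to 1.80, 2470 cells) had *Tox* levels of 0.00848 to 0.0547, with a median of 0.0127. The 17 clusters with less *Amh* had *Tox* levels of 0.0700 to 1.09, with a median of 0.354, so the levels did not overlap at this cut. The non-overlap depends on the cut. Among the 17, the highest *Amh* level was 0.436, in a mitotic cluster of set 1 without a subtype. Its *Tox* level was 0.334, and with that cluster on the *Amh* side the levels would overlap. The share of all genes that split these clusters in this way was not worked out, so the split is not shown to be particular to *Tox*. Counting error does not separate all of these *Tox* levels, since the intervals of 10 of the 17 overlapped that of an *Amh* cluster. They were 5 when the *Amh* cluster with the widest interval (0.0306, 0.00908 to 0.320, 5 UMIs) was set aside. For *Tox2* they did overlap, with 0.821 to 1.57 (median 1.37) in the *Amh* clusters and 0.366 to 4.88 (median 2.64) in the others. Of the 6 *Amh* clusters, 3 were preantral-like and 3 had no subtype, 2 of them mitotic (set 2, led by *Cdc20*, and set 3, led by *Pclaf*). Over the 23 clusters, the Pearson correlation of log2 levels with *Amh* was -0.81 for *Tox* and -0.33 for *Tox2*, and with *Kctd14* it was -0.73 and -0.50. These values describe clusters that share libraries and were drawn partly on *Amh*.

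**Figure D3:**
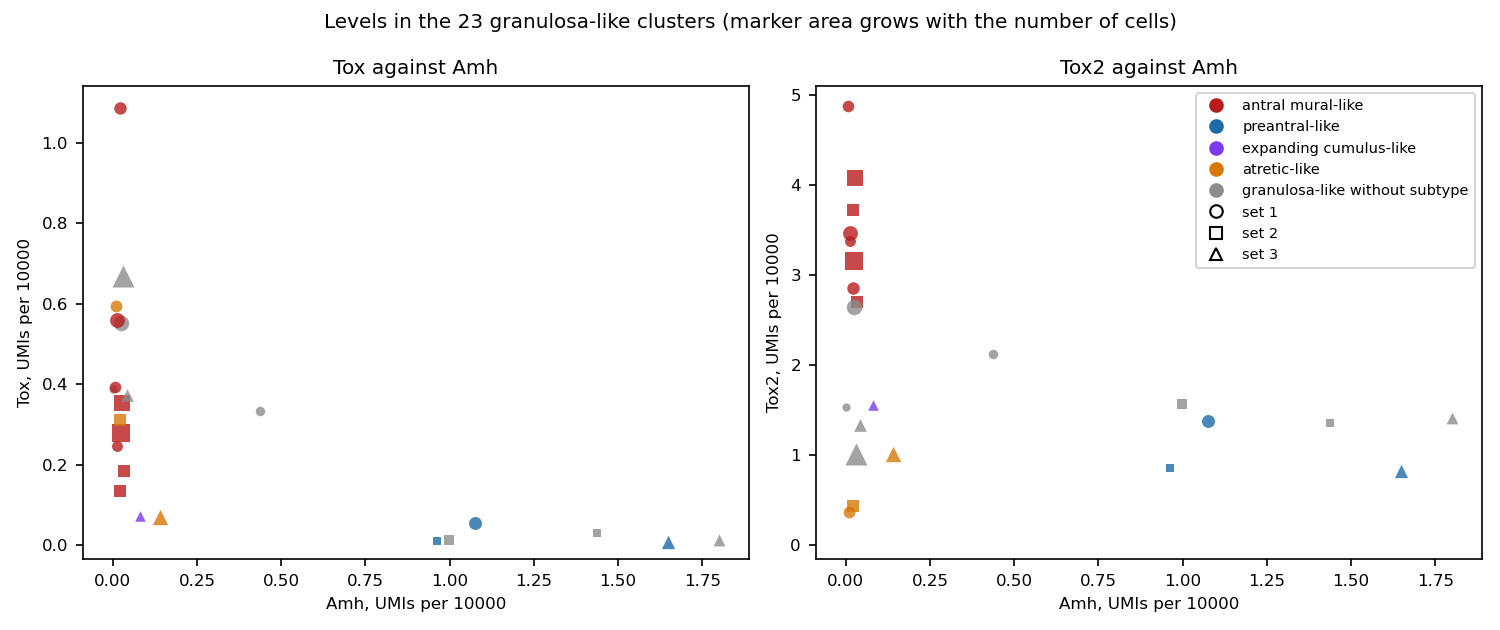
*Tox* (left) and *Tox2* (right) against *Amh* in the 23 granulosa-like clusters (all axes in UMIs per 10000); colours are subtypes, symbols are barcode sets and the marker area grows with the number of cells. The 6 clusters with *Amh* of at least 0.963 all had *Tox* of at most 0.0547, while their *Tox2* levels of 0.821 to 1.57 lay inside the range of the other clusters. How many of all genes split these clusters as *Tox* does was not worked out.

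The highest *Tox* level of all clusters was 1.09 (0.961 to 1.23), in a set 1 antral mural-like cluster of 557 cells led by *1110032F04Rik*, *Ccn2* and *Mro*. In set 3 it was 0.668 (0.621 to 0.723), in a granulosa-like cluster of 2079 cells without a subtype led by *Npy*, *Lyve1* and *Rnf180*. In set 2 the highest value was 0.354, in the cluster led by *Comp*, *Tnfsf11* and *Flrt3*. As many as 13 of the 23 granulosa-like clusters lay above every other named cluster, of which the highest was an endothelial-like cluster of set 1 (425 cells led by *Ctla2a*, *Cldn5* and *Esam*, 0.227, 0.156 to 0.358).

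Endothelial-like cells had *Tox* levels of 0.208 (0.144 to 0.327), 0.148 (0.108 to 0.212) and 0.0910 (0.0528 to 0.236) in sets 1, 2 and 3, and a thinned share of 3.86% (2.89 to 5.04), above the share in stroma-like cells. Relative to the GCs of their set, these cells held 0.418, 0.630 and 0.271 of the *Tox* level. For *Tox2* the corresponding values were 0.0433, 0.0614 and 0.130. Theca-like (0.0204), myeloid-like (0.0259), smooth muscle and pericyte-like (0.0268), preantral-like (0.0282) and stroma-like cells (0.0284) could not be ordered over the table, since the intervals of neighbours overlapped. No cluster was lymphoid. The 81 cells with a UMI of at least 2 of the 10 lymphoid markers had a *Tox* level of 0.197 (0.0777 to 0.671, 13 UMIs) beside 0.184 in all cells, a ratio of 1.07 (0.421 to 2.24), and 0 *Tox3* UMIs. The level in all cells mixes granulosa-like cells (0.356) with other cells (0.0414), and 33 of the 81 gated cells lay in granulosa-like clusters. The ratio therefore does not compare the gate with cells outside the GCs. In sets 1, 2 and 3 the *Tox* level of the gate was 0.178, 0.188 and 0.211, from 3, 3 and 7 UMIs, and its *Tox2* level was 0.0303, 0.735 and 1.01. Of the gated cells, 0 of 14, 5 of 29 and 28 of 38 lay in granulosa-like clusters. *Cd3e*, a marker of the gate, was 0.2201-fold, 1.48-fold and 1.85-fold as high in granulosa-like as in other cells of these sets. The lymphoid markers did not share this, since of the 5 with at least 100 UMIs only *Cd3e* had an interval above 1 over the table. Of these 5, 3 had an interval below 1, beside 42.6% of all genes above and 39.1% below. The gate of set 3 therefore held mostly cells of granulosa-like clusters.

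*Tox3* was highest in endothelial-like cells. Its level there was 0.271 (0.199 to 0.396), 0.246 (0.192 to 0.325) and 0.218 (0.156 to 0.372) in sets 1, 2 and 3, against granulosa-like levels of 0.0652, 0.0399 and 0.0325. Endothelial-like over granulosa-like cells was 4.15 (2.92 to 5.79), 6.16 (4.5 to 8.39) and 6.73 (4.504 to 9.90) in the sets, and 5.38 (4.43 to 6.51) over the table. Endothelial-like cells held 29.96% of the 751 *Tox3* UMIs and 4.71% of all UMIs. After thinning, 6.35% (5.10 to 7.81) of endothelial-like, 1.31% (1.13 to 1.52) of granulosa-like and 0.286% (0.185 to 0.422) of stroma-like cells had a *Tox3* UMI, from unthinned shares of 11.1%, 2.61% and 0.497%. The highest cluster was an endothelial-like one of set 2 (117 cells, 0.520, 0.349 to 0.840) led by *Eln*, *Stmn2* and *Gja4*, with the arterial genes *Sox17* and *Gja5* also among its 10 leading genes.

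Of the other classes, atretic-like GCs came next in set 1 and over the table, and preantral-like GCs in sets 2 and 3. Atretic-like GCs had a *Tox3* level of 0.188 (0.138 to 0.265), 0.104 (0.0723 to 0.154) and 0.0323 (0.0170 to 0.0832) in sets 1, 2 and 3. Relative to the antral mural-like GCs of their set these were 3.91-fold (2.60 to 5.84) in set 1 and 4.4-fold (2.74 to 7.02) in set 2. Preantral-like GCs had 0.0382, 0.133 and 0.0504, from 19, 20 and 17 UMIs. The interval of the class in second place overlapped that of endothelial-like cells in sets 1 and 2. The antral mural-like level was 1.26-fold (0.703 to 2.42) the preantral-like level in set 1 and 0.177-fold (0.0983 to 0.335) in set 2, where 27.5% of all genes were at least 2-fold lower. Expanding cumulus-like cells had 0.00805 from 4 UMIs. Over all GCs, *Tox3* was 2.44-fold (1.80 to 3.34) the level of other cells in set 1, 0.980-fold (0.711 to 1.36) in set 2 and 1.08-fold (0.786 to 1.48) in set 3, and the ratio over the table (1.41, 1.18 to 1.69) was 1.03 without set 1 and 1.18 (0.978 to 1.43) without the atretic-like clusters of sets 1 and 2. Theca-like cells had 8 *Tox3* UMIs in 2357 cells (0.00259).

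*Tox4* was found in every class at similar levels. It was 0.604 in granulosa-like and 0.560 in other cells, a ratio of 1.08 (1.04 to 1.12), with 1.10 (1.03 to 1.18), 0.930 (0.865 to 1.0002) and 1.21 (1.13 to 1.30) in sets 1, 2 and 3. The interval of set 2 thus included 1. Granulosa-like cells held 48.4% of the 13706 *Tox4* UMIs and 45.8% of all UMIs, and the ratio was 1.01 without set 3. The levels of the classes with over 65 cells lay between 0.545 and 0.764 over the table, and the intervals of all neighbours in that order overlapped. Classes further apart could separate, as did atretic-like (0.669, 0.619 to 0.728) and stroma-like cells (0.567, 0.545 to 0.591). In set 2, however, stroma-like cells (0.674) had the higher level of these classes, beside 0.644 in atretic-like cells. Myeloid-like cells had 0.477, 0.667 and 1.01 in sets 1, 2 and 3, from 36, 43 and 57 UMIs. They came last in set 1, second in set 2 and first in set 3 and over the table, and in set 3 they stood at 1.63 (1.10 to 2.33) of the GCs. The myeloid-like cluster of set 3 led by *S100a9* and *S100a8* (92 cells) had the highest *Tox4* level of all clusters, 1.16 (0.639 to 2.16).

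The partners of TOX4 in the PTW/PP1 complex moved in no common direction. Their granulosa-like to other ratios were 1.24 (1.21 to 1.27) for *Ppp1r10*, the scaffold PNUTS, and 0.976 (0.936 to 1.02) for *Wdr82*. Those of the catalytic subunits of protein phosphatase 1 were 0.925 for *Ppp1ca*, 1.05 for *Ppp1cb* and 0.860 for *Ppp1cc*. Of these 5 genes, 2 had an interval above 1 and 2 below it, where 42.6% and 39.1% of all genes had such intervals, so these counts are close to the background. None passed 2-fold, beside 10.6% of all genes at least 2-fold higher and 17.4% lower, and their median of 0.976 stood beside 1.02 over all genes tested. *Ppp1r10* was higher in granulosa-like cells in each set (1.13, 1.36 and 1.19), and *Ppp1cc* turned from 0.706 and 0.759 in sets 1 and 2 to 1.07 in set 3.

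The members also differed between mitotic and remaining GCs, groups that each mix subtypes. In the 6 granulosa-like clusters marked by *Top2a*, *Mki67* and other mitotic genes (2240 cells), the *Tox* level stood at 0.528 (0.442 to 0.627), 0.605 (0.451 to 0.797) and 0.567 (0.487 to 0.659) of that in the remaining GCs of sets 1, 2 and 3. *Tox3* stood at 0.304 (0.156 to 0.540), 0.365 (0.162 to 0.722) and 0.615 (0.353 to 1.03). *Tox2* stood at 1.11 (1.05 to 1.17), 0.842 (0.794 to 0.892) and 1.33 (1.25 to 1.42), so its direction depended on the set. GCs without a subtype had 0.855 (0.767 to 0.953), 0.865 (0.731 to 1.02) and 1.35 (1.26 to 1.46) in sets 1, 2 and 3. *Tox4* stood at 0.973, 0.896 and 0.830, with an interval below 1 in set 3 alone (0.752 to 0.916). Within antral mural-like GCs the mitotic level of *Tox* was 0.365 (0.287 to 0.458) and 0.663 (0.488 to 0.883) of the non-mitotic level in sets 1 and 2, and that of *Tox2* was 0.929 (0.870 to 0.991) and 0.756 (0.709 to 0.804). In set 1 *Tox2* was thus below 1 in both subtypes with a mitotic cluster and above 1 over all GCs. In GCs without a subtype, *Tox* stood at 0.632 (0.471 to 0.840), 2.42 (0.501 to 11.7) and 0.314 (0.269 to 0.365), the value of set 2 from 5 UMIs on each side. Mitotic clusters of set 3, both without a subtype, had *Tox* levels of 0.373 (led by *Ube2c*) and 0.0127 (the *Amh* cluster led by *Pclaf*). The non-mitotic GC clusters of that set ran from 0.00848 to 0.668, the highest being the one without a subtype. Mitotic clusters of set 2 had 0.185 (antral mural-like) and 0.0306 (the *Amh* cluster led by *Cdc20*). The part of this mix of clusters in the *Tox* ratios was not tested. A shallow cluster of set 1 led by *Ube2c*, *Birc5* and *Pclaf* (156 cells, median of 853 UMIs) missed the limit for mitotic clusters and is among the remaining GCs, and without it the set 1 values were 0.522 for *Tox* and 1.09 for *Tox2*. Mitotic GCs were deeper (median 10953.5 UMIs against 5985), which a level per 10000 UMIs scales out, and the part of the larger RNA content of dividing cells was not tested.

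**Figure D4:**
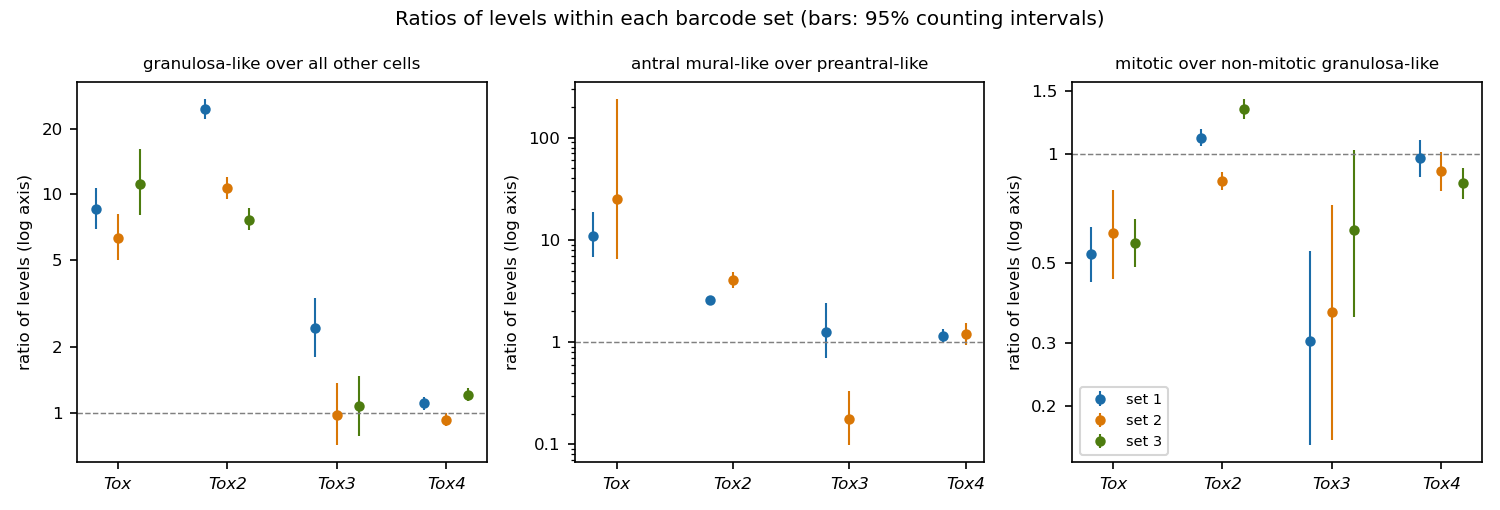
Ratios of levels (y axes, log scale) for the 4 members within each barcode set: granulosa-like over all other cells (left), antral mural-like over preantral-like GCs (middle, sets 1 and 2) and mitotic over non-mitotic GCs (right); bars are 95% counting intervals and the dashed line is a ratio of 1. The left panel runs from 24.5 for *Tox2* in set 1 to 0.930 for *Tox4* in set 2, and in the right panel *Tox* lies between 0.528 and 0.605 while *Tox2* lies on both sides of 1. The right panel pools unlike clusters: in set 3 the mitotic ones had *Tox* levels of 0.373 and 0.0127, the lower in a cluster high in *Amh*.

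At 3000 UMIs per cell, UMIs of more than 1 member were seldom seen in a cell, and this depth limits how often any member is seen. Of the granulosa-like cells thinned to 3000 UMIs, 44.5% had no UMI of any member, 43.9% of 1 member, 10.7% of 2 and 0.827% of 3, and of the other cells 80.4% had none. A *Tox2* UMI was present in 46.0% (43.2 to 48.8) of the 1245 GCs with a *Tox* UMI and in 40.7% (39.8 to 41.5) of the 12535 without. *Tox4* was present in 16.1% of the GCs with and 16.4% of those without *Tox2*. Over the 64 clusters, the correlation of log2 levels of *Tox* and *Tox2* was 0.62, and over the 23 granulosa-like clusters it was 0.25. Within those GC clusters *Tox2* and *Tox3* had a correlation of -0.56. These are descriptions of clusters from shared libraries, and *Tox3* rests on few UMIs in most of them.

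**Figure D5:**
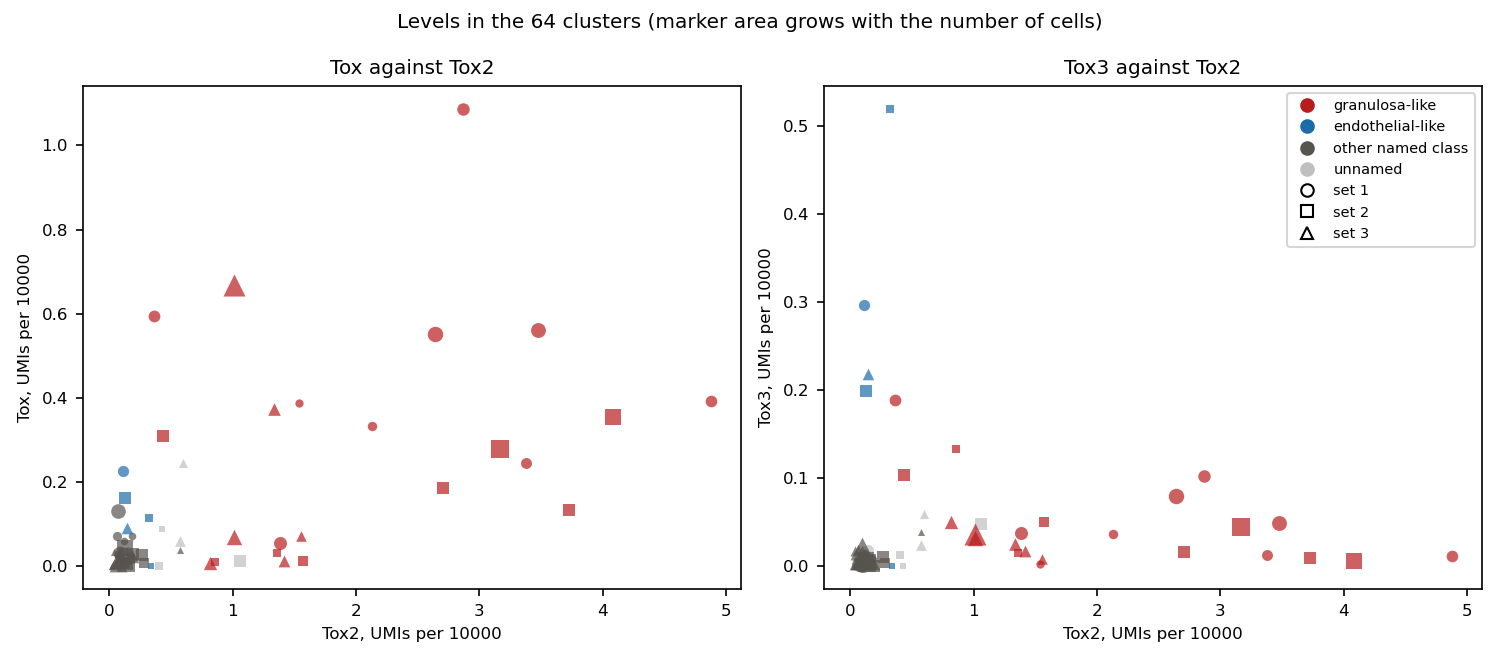
Levels in the 64 clusters, with *Tox* (left) and *Tox3* (right) against *Tox2* (all axes in UMIs per 10000); colours are classes, symbols are barcode sets and the marker area grows with the number of cells. Clusters of other named classes stay at or below 0.571 for *Tox2* and 0.227 for *Tox*, GC clusters spread up to 4.88 and 1.09, and the highest *Tox3* values (up to 0.520) belong to endothelial-like clusters with little *Tox2*.

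The genes whose levels were most like a member's were taken from 5505 genes by the Pearson correlation of log2 levels over the 64 clusters. For *Tox2* they were *Fst* (follistatin, 0.96), *Serpine2* (a serine protease inhibitor, 0.96), *Cyb5a* (cytochrome b5, 0.94), *Tmsb15b2* (a thymosin beta gene, 0.93) and *Inha* (0.93), of which *Fst*, *Serpine2* and *Inha* are GC markers that named the clusters. Over the 23 granulosa-like clusters these 5 correlations were 0.94, 0.94, 0.93, 0.82 and 0.91. Those for *Tox* were *Etl4* (0.85), *Epha5* (an ephrin receptor, 0.81), *Comp* (cartilage oligomeric matrix protein, 0.78), *Srbd1* (0.77) and *Masp1* (a complement protease, 0.74). Those for *Tox3* were *Edn1* (endothelin 1, 0.81), *Eogt* (0.81), *Jag2* (a Notch ligand, 0.80), *Sox17* (0.78) and *Mrtfb* (0.78). Those for *Tox4* were lower: *Atad2b* (0.71), *Kdm2a* (0.64), *Ccnt1* (0.62), *Tbc1d20* (0.57) and *Kdm5c* (0.55). Over the granulosa-like clusters alone the correlations were 0.53 to 0.87 for the 5 genes of *Tox* and 0.28 to 0.84 for those of *Tox4*. For those of *Tox3* they fell to 0.38 (*Edn1*), 0.47 (*Eogt*), 0.038 (*Jag2*), -0.0070 (*Sox17*) and 0.50 (*Mrtfb*). With *Fshr*, the receptor of follicle-stimulating hormone, the correlation was 0.92 for *Tox2*, 0.77 for *Tox*, 0.15 for *Tox3* and 0.08 for *Tox4*, and with *Lhcgr*, the LH receptor, it was 0.22 for *Tox2* and 0.18 for *Tox*. Over the 23 granulosa-like clusters alone, the correlation with *Lhcgr* was 0.63 for *Tox2* and 0.61 for *Tox*, and with *Fshr* it was 0.78 and 0.72.

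Other HMG-box genes did not share a direction. Of 28, 13 had a granulosa-like to other ratio with an interval above 1 and 12 below it, beside 42.6% and 39.1% of all genes, and the median was 1.00 beside 1.02. The same direction in all 3 sets was held by 9 above 1 and 7 below, where the shares of all genes were 17.2% and 20.4%. In the table, 4 were at least 2-fold higher in GCs, *Sox4* (2.91), *Hmgb3* (2.44), *Tcf7* (2.33) and *Bbx* (2.30), beside 10.6% of all genes. As many as 8 were at least 2-fold lower, beside 17.4% of all genes, among them the endothelial factors *Sox17* (0.0219), *Sox7* (0.0446) and *Sox18* (0.171).

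The list around the reported TOX3 partners held CREB (*Creb1*) and *Cited1*, with *Cited2*, a relative of *Cited1*, and the CREB coactivators *Crebbp* and *Ep300*. Granulosa-like to other ratios in sets 1, 2 and 3 were 1.45, 0.692 and 1.06 for *Creb1*, so that its direction depended on the set, and 1.18, 1.59 and 5.60 for *Cited1*. They were 2.89, 5.20 and 5.81 for *Cited2*, 1.18, 1.13 and 1.83 for *Ep300* and 1.03, 0.986 and 1.14 for *Crebbp*. Over the table all 5 had an interval above 1 (42.6% of all genes), and 3 had it in each set (17.2%). *Cited2* (4.74) and *Cited1* (3.54) were past 2-fold there, as were 10.6% of all genes, and the median was 1.35.

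Of 5 NFAT factors, which act with TOX in T cells, 1 had an interval above 1 over the table and 3 below it, beside 42.6% and 39.1% of all genes. In all 3 sets at once 0 lay above 1 (17.2% of all genes) and 2 below (20.4%), *Nfatc1* and *Nfatc4*, with 0.147 and 0.149 over the table. *Nfatc2* turned from 0.480 (0.303 to 0.741) in set 1 to 2.26 (1.60 to 3.25) in set 3, with 1.23 over the table, and *Nfat5* from 0.671 and 0.781 in sets 1 and 2 to 1.35 in set 3. The median over the table was 0.879.

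Of 13 gonadotropin receptor and steroidogenic genes, 11 had an interval above 1 over the table and 6 in each set, beside 42.6% and 17.2% of all genes, and the median was 1.47. *Fshr* (16.4), *Cyp19a1* (aromatase, 15.9), *Nr5a2* (12.2), *Esr2* (8.36) and *Gata6* (4.97) were the 5 past 2-fold, as were 10.6% of all genes. Of these, *Nr5a2* is a GC marker that named the clusters, so its place in these counts is no independent result. *Lhcgr* (0.573) and *Cyp11a1* (0.427) lay below 1 over the table, but *Lhcgr* was 1.45 (1.29 to 1.62) in set 3. *Star*, which brings cholesterol into mitochondria, turned from 0.126 in set 1 to 1.23 and 1.79 in sets 2 and 3, and *Foxl2* was 1.43, 0.782 and 1.79. Of 8 ovulatory genes, 7 had an interval above 1 and were past 2-fold over the table (median 3.84), and 1 had an interval above 1 in each set, *Btc* (2.49, 8.97 and 8.80). Of these genes, *Ptx3*, *Tnfaip6*, *Has2* and *Ptgs2* are markers of the expanding cumulus subtype. Subtype markers counted as GC markers among leading genes in the naming of clusters, so their place in these counts is no independent result. *Areg*, *Ereg*, *Pgr*, *Tnfaip6*, *Has2* and *Ptx3* were below 1 in set 1, and *Areg* (0.744), *Ereg* (0.331) and *Has2* (0.746) also in set 3.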

How the data were processed

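Ovarian cells of 3 libraries, 1 per time point, had been run on the 10x Genomics platform. The submitters' processing notes name Cell Ranger, Seurat and mm10 without versions, and filters on cells are not given in the sources used here. The authors deposited 1 table in which each cell's UMIs were scaled to 10000, increased by 1 and turned into natural log values. UMI counts were worked back from it, and 100% of 80167176 values above 0 came out whole within 0.01.

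The barcode sets were clustered separately with python 3.11.15, numpy 2.4.6, scipy 1.17.1, scikit-learn 1.9.0 and python-igraph 0.11.9, on 2000 variable genes without the members, 30 principal components, 15 neighbours and Louvain resolution 1. A class needed at least 3 markers detected (in at least 10% of cells, at a level of at least 0.5 and at 0.4 of a log scale on which the highest cluster of the set is 1) and a mean of 0.35 on that scale. Subtypes needed 3 markers and a mean of 0.6, and mitotic clusters 0.7. A cluster with no class that met the terms of the atretic subtype was also called granulosa-like, which applied to 2 clusters (1036 cells) with 2 and 3 GC markers detected. A cluster stayed unnamed where at least 2 markers of another class, and more than of its own, were among its 10 genes of largest fold, where 1 such marker met a mean under 0.5, or where it was shallow with no marker of its own among them. Subtype markers counted as GC markers here, so that a shallow cluster of set 1 kept its name through *Grem1*, a cumulus marker. These thresholds were set after the clusters had been viewed, in views that did not show the members. The members, the lists, the markers and the rule for named genes (the members, every gene of the lists and the 5 genes most like each member) were chosen with earlier results of these data known. *Amh* and single clusters were named after their values were seen.

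Levels have Fay-Feuer gamma intervals, ratios exact binomial intervals and shares Clopper-Pearson intervals, all for counting error only, since no group has a replicate. A call of 2-fold was made over genes with at least 100 UMIs. Doublets were not removed, no caller was run, and an alternative leaves out the 5% deepest cells of each set. No sample, locus or table beyond those named was used, and figures were drawn with matplotlib 3.10.9.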

Additional observations from a re-analysis of the deposited data

How the results depend on the processing

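The 8 ratios and shares reported for *Tox*, *Tox2*, *Tox3* and *Tox4* were recomputed under 16 alternatives, which gave 122 values. None reversed, but the interval came to include 1 for *Tox3* in GCs against other cells without set 1 (0.825 to 1.29) and without the atretic-like clusters of sets 1 and 2 (0.978 to 1.43). It did so for *Tox4* without set 3 (0.965 to 1.07), with a stricter marker level (0.969 to 1.06) and from single-cell marker scores (0.9996 to 1.09). The 7 differences of mean log values had the direction of their ratio and are in another unit, 72 of the other values lay within the counting interval of the reported value and 43 outside it. The granulosa-like to other ratio of *Tox2* (12.8) became 14.1 from pooled UMIs, 11.9 at Louvain resolution 2, 7.95 with all sets clustered together, 11.1 with each cell classed by its own markers, 15.02 without cells under 2000 UMIs, and 9.68 to 14.9 with a barcode set left out. That of *Tox* (8.61) became 4.89 at resolution 2, 2.47 with the sets clustered together and 3.54 from single-cell marker scores, and ran from 7.66 to 9.57 with a set left out. That of *Tox3* (1.41) ran from 1.03, without set 1, to 1.69, and that of *Tox4* (1.08) from 1.01 to 1.16. The share of *Tox2* UMIs in granulosa-like cells (92.3%) became 90.8% at resolution 2, 82.4% with the sets clustered together, 88.2% from single-cell marker scores and 93.2% without the deepest cells, and ran from 91.1% to 93.2% with a set left out. The antral mural-like to preantral-like ratio of *Tox2* (3.32) became 3.07 from pooled UMIs, 2.46 and 3.93 at resolutions 0.5 and 2, 3.86 with the sets clustered together and 2.95 from single-cell marker scores, and ran from 2.81 to 4.19 with a set left out. The other 2 of the 8 results were chosen after seeing the data. The antral mural-like to preantral-like ratio of *Tox* (14.3) became 10.6 and 34.1 at resolutions 0.5 and 2, 44.3 with the sets clustered together and 27.0 from single-cell marker scores, and ran from 9.16, without set 3, to 29.8, without set 1. The endothelial-like to granulosa-like ratio of *Tox3* (5.38) ran from 4.86 to 6.52 with a set left out.

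Further alternatives were chosen after seeing the data. A stricter marker level (0.15 higher) gave granulosa-like to other ratios of 5.48 for *Tox2*, 2.36 for *Tox* and 1.01 for *Tox4*, a *Tox2* share of 68.2%, and antral mural-like to preantral-like ratios of 4.77 for *Tox2* and 42.4 for *Tox*. It left 9146 granulosa-like and 6979 unnamed cells, against 14441 and 1684. Leaving out the set 2 cluster led by *Comp*, *Tnfsf11* and *Flrt3* gave 11.9 and 91.3% for *Tox2*, leaving out the atretic-like clusters of sets 1 and 2 gave 13.6 for *Tox2*, 8.45 for *Tox*, 1.18 for *Tox3* and 1.07 for *Tox4*, and leaving the unnamed cells out of the other cells gave 17.7. The causes of these shifts were not tested. *Tox3* rests on 751 UMIs, and *Tox* in preantral-like cells on 28. No paired analysis was possible because each time point has 1 library and no test was run.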
